A study of Mus musculus with 8 samples.

Results

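The comparison set term diff against stem-like CD8+ T cells of wild-type mice, in 4 of the 8 libraries of the series. The libraries were chosen by their titles: 2 wild-type libraries are named stem-like and 2 term diff. All came from BALB/c mice and held CD8+ T cells that bound the AH1 tetramer, a reagent carrying a peptide of the envelope protein of the endogenous murine leukaemia virus. Cells were sorted alive on a FACSAria III. The other 4 libraries hold the same subsets of Cd69-/- mice, and here they only share the estimate of spread and serve as the second genotype. The sources used here give neither the sort gates, the tumour, nor the age or number of the mice. Surface molecules used in the sort may therefore stand among the genes that differ most. Nothing states that replicates came from separate animals, so p-values measure the spread between these samples, which may be technical.

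CD8+ T cells that meet antigen for a long time, as in tumours, form a hierarchy. Stem-like (progenitor) cells carry the transcription factor TCF-1, divide to renew themselves and can home to lymphoid tissue. They give rise to terminally differentiated cells, which carry TIM-3 and CD39, hold more granzyme and have little capacity for renewal. Both kinds carry PD-1.

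Gene tables gave FPKM, which scales fragments to transcript length and library size. A gene was tested if 2 or more of the 8 libraries had it at 1 FPKM or above, which left 9782 genes. Differences below are term diff minus stem-like on the log2(FPKM + 1) scale, ± standard error, from limma with Benjamini-Hochberg adjustment over all 9782 genes and a threshold of 0.05. On this scale the change of low genes is understated. Between 9032 and 9185 rows reached 1 FPKM per wild-type library, and the confidence limits in the tables implied 2089721 to 2591061 fragments per library. Small RNA genes held 80.8% and 79.6% of the summed FPKM in both wild-type replicate 1 libraries, but 63.7% (stem-like) and 56.1% (term diff) in both replicate 2 libraries. In Cd69-/- libraries the share was 78.1% to 84.5%. Both replicate 2 libraries thus stood apart from the rest in this share, in each subset alike. Because of this spread between libraries, a call is termed stable below only if it was kept when each of the 4 wild-type libraries was left out in turn.

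Markers fitted the label of CD8+ T cells. Of 8 CD8 T cell markers tested, 0 were called. Cd3e, a chain of the T cell receptor complex, stood at 184 and 232 FPKM in stem-like and 196 and 212 FPKM in term diff. Cd8a stood at 126 and 148 FPKM in stem-like and 131 and 138 FPKM in term diff. The neutrophil marker S100a8 was listed at 0 in all 4 libraries, Epcam of epithelial cells reached at most 0.715 FPKM, and Csf1r, which defines macrophages, at most 0.418 FPKM. Of the marker lists, 0 of 6 neutrophil and 0 of 7 B cell genes passed the filter. The 15 myeloid markers summed to 50.1 and 55.7 FPKM in stem-like and 51.3 and 49.2 FPKM in term diff, a sum in which 1 rise and 1 fall, both stable, offset each other. Of the 7 tested, Fcer1g rose (values below), Cst3 fell, 5 were not called, and the median was -0.71, with 1 member above zero. Cst3, the secreted protease inhibitor cystatin C, went from 40.0 and 40.2 FPKM to 18.2 and 14.4 FPKM (-1.26 ± 0.21, adjusted p = 0.0068). The 14 markers without Fcer1g summed to 48.5 and 54.5 FPKM in stem-like and to 21.6 and 22.1 FPKM in term diff. The 6 markers of CD4 and regulatory T cells summed to 31.0 and 30.6 FPKM in stem-like and to 14.8 and 15.9 FPKM in term diff. Foxp3, the factor that defines regulatory T cells, lay at 0.211 to 0.475 FPKM. Of the 5 such markers tested 3 fell and 1 rose; the stable falls were Il2ra and Ikzf2, which activated CD8+ T cells express too. Of 4 NK cell markers and 1 erythroid marker tested, 0 were called. Cd4, which defines CD4 T cells, was above the filter: it lay at 5.52 and 3.04 FPKM in stem-like and at 1.38 and 3.83 FPKM in term diff, groups that overlap. Of the 12 markers of epithelial, tumour and stromal cells, 2 were tested and both fell. Igfbp7, a secreted protein of endothelium and stroma, stood at 16.3 and 20.5 FPKM in stem-like and at 3.50 and 2.16 FPKM in term diff (-2.36 ± 0.22, adjusted p = 0.00052). Pecam1 (CD31), an adhesion receptor of endothelium and also of T cells, stood at 10.7 and 13 FPKM in stem-like and at 5.96 and 5.87 FPKM in term diff (-0.89 ± 0.13, adjusted p = 0.0043). The part of such other cells in the differences below was not tested.

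Term diff and stem-like cells differed in 1278 genes, 13.1% of those tested. Of these, 708 were higher in term diff (7.24% of those tested) and 570 lower (5.83%). The difference reached at least 1 on the log2 scale in 197 of the higher and 198 of the lower genes. The median difference over all genes tested was 0.06. In each of the 1278 called genes the 2 groups did not overlap, which held for 55.2% of all genes tested. Stable calls numbered 440 (4.5% of genes tested), of which 215 were higher (2.2% of genes tested) and 225 lower (2.3%). With both replicate 2 libraries left out, 291 of the 1278 genes were still called. With an equal FPKM sum without small RNA 1126 genes were called, with median-of-ratios scaling 1396 and with quantile normalization 1369. Rescaling each library to an equal FPKM sum over all rows, most of which was small RNA, moved the median of all genes by 0.143. It left 99 of the 1278 called. Of the 124 called genes named in the text, 42 kept their call under that rescaling, among them Tcf7, Bcl6, Slamf6, Ccr7, Il7r, Nt5e, Havcr2, Entpd1, Gzmb, Ccl5, Cxcr6 and Fcer1g. In such bulk samples, fewer cells of a type and less RNA per cell cannot be told apart.

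**Figure D1:**
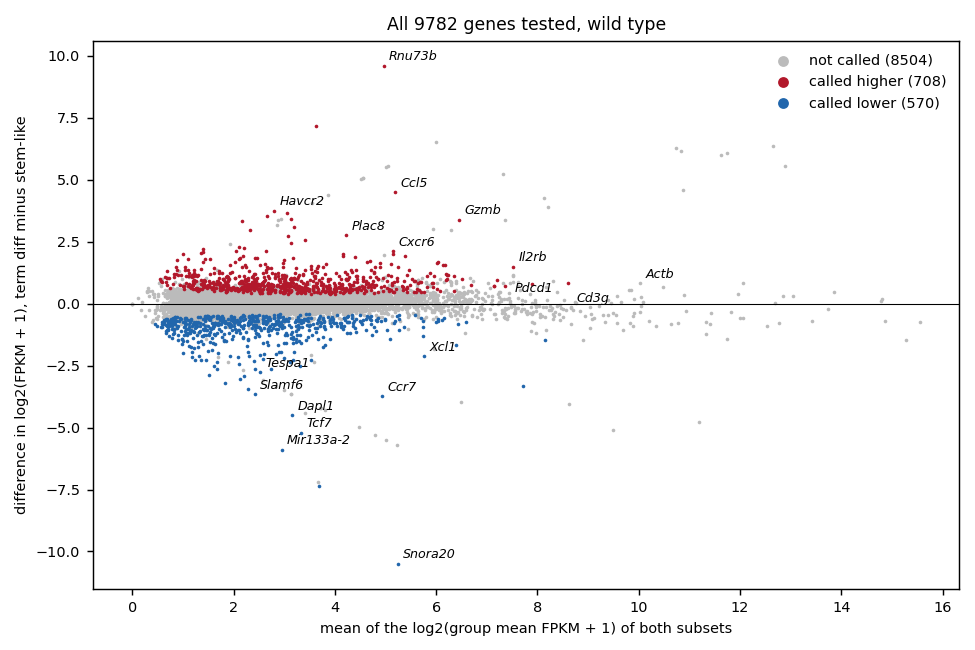
Difference between term diff and stem-like (vertical, log2(FPKM + 1) units) against mean level (horizontal, log2 units) for all 9782 genes tested in wild type; colours mark the 708 genes called higher and the 570 called lower. Ccl5 and Gzmb stand out above, Tcf7 and Dapl1 below; the extreme points Rnu73b, Mir133a-2 and Snora20 are small RNA genes that rest on 1 to 4 fragments in each library where they were seen.

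The largest separations were near on-off. Tcf7, which encodes TCF-1, stood at 55.2 and 64.2 FPKM in the stem-like libraries and at 0.544 and 0.755 FPKM in term diff. It fell by 5.20 ± 0.19 (adjusted p = 1.2e-05) and lies at chr11:52246527-52283383 (RefSeq, GRCm38.p6). Havcr2, the gene of the inhibitory receptor TIM-3 (chr11:46454931-46481255), showed the mirror image. It was at 0.987 and 0.847 FPKM in stem-like and at 23.3 and 25.8 FPKM in term diff (3.74 ± 0.15, adjusted p = 1.3e-05). Dapl1, a gene of long-lived and quiescent T cells, stood at 49.9 and 31.4 FPKM in stem-like and at 1.5 and 0.297 FPKM in term diff (-4.50 ± 0.31, adjusted p = 0.00012). These genes had stable calls, as had each called gene named in the text except Cd69, Cox7a1, Hist1h1e, Id3, Ncapg2, S100a6, Smc4, Snora20 and Snord88c. The criterion does not weigh depth: Mir133a-2, Rnu73b, Defb13 and Defb7 were stable by it but rested on very few implied fragments. Genes under 1 FPKM on average in one subset and at 10 or more in the other, other than small RNA, were 10. In term diff Havcr2, Entpd1, Adam8 and Filip1 were the high ones. In stem-like they were Tcf7, Dapl1, Slamf6, Lrig1, Cd83 and Cyr61.

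**Figure D2:**
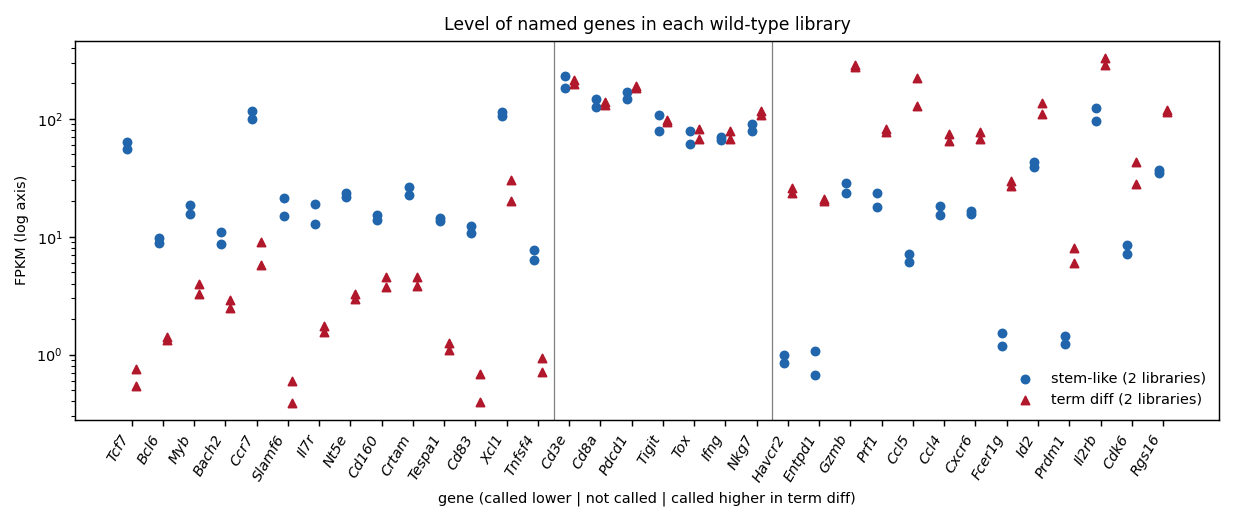
FPKM (log axis) of 34 named genes in each wild-type library; circles are the 2 stem-like and triangles the 2 term diff libraries. Left genes were called lower and right genes called higher in term diff, with no overlap between groups; the 7 genes in the middle, such as Pdcd1 and Tox, were not called.

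Transcription factors of progenitor cells were lower in term diff or not called (42.9% called, against 13.1% of all genes tested). Of 14 tested, 6 fell, 0 rose, and 5 of the calls were stable; the list median was -0.72, against 0.06 over all genes. Beside Tcf7 these were Bcl6, Myb, Bach2 and Lef1, factors that restrain effector differentiation or support renewal. Bcl6 stood at 8.90 and 9.74 FPKM in stem-like and at 1.4 and 1.32 FPKM in term diff (-2.13 ± 0.16, adjusted p = 0.00016). Myb went from 15.6 and 18.6 FPKM to 3.27 and 3.95 FPKM (-1.97 ± 0.17, adjusted p = 0.00031). Every stem-like library exceeded every term diff library for each of these genes. Groups did not overlap in any called gene, nor in 55.2% of all genes tested. Bach2 fell by 1.53 ± 0.16 and Lef1 by 1.25 ± 0.19. The call of Id3, an inhibitor of E proteins (-1.12 ± 0.21, adjusted p = 0.010), was lost when stem-like replicate 2 was left out (adjusted p = 0.0516), and likewise for term diff replicate 1 (adjusted p = 0.0594). Foxo1, a driver of homing and quiescence genes, was not called (0.07, 95% interval -0.36 to 0.50), nor was Satb1, a chromatin organiser (-0.19, -0.52 to 0.13).

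Factors of effector and exhausted cells moved both ways (61.1% called, against 13.1% of all genes tested). Of 18 tested, 6 rose and 5 fell, of which 5 and 3 were stable; the median was -0.07. Prdm1, which encodes the repressor Blimp-1 of terminal differentiation, rose from 1.22 and 1.43 FPKM to 6.03 and 8.08 FPKM (1.78 ± 0.16, adjusted p = 0.00045). Id2, the E protein inhibitor of effector cells, rose from 43.3 and 39.2 FPKM to 135 and 110 FPKM (1.54 ± 0.17, adjusted p = 0.0011). The Ikaros family split: Ikzf3 (Aiolos) rose by 1.6 ± 0.15, from 17.8 and 19.5 FPKM to 53.0 and 65.0 FPKM, while Ikzf2 (Helios) fell by 0.92 ± 0.16. Rbpj, the nuclear partner of Notch, and Tbx21, which encodes T-bet, rose by 1.18 ± 0.14 and 0.92 ± 0.12. On the other side, Batf, an AP-1 factor of activated T cells, fell from 23.0 and 16.8 FPKM to 8.54 and 5.01 FPKM (-1.45 ± 0.22, adjusted p = 0.0050). Rora, a nuclear receptor, fell by 1.22 ± 0.18. Tox, the factor that sets up the exhausted state, stood at 61.3 and 79.1 FPKM in stem-like and at 67.6 and 81.4 FPKM in term diff. Those groups overlap, and the difference was 0.09 (95% interval -0.29 to 0.47). Eomes, the T-box relative of T-bet, was not called (-0.76, -1.34 to -0.19, adjusted p = 0.089).

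Of 12 surface molecules tested that mark progenitors or guide T cells to lymphoid tissue, 8 fell, 0 rose and 4 were not called; 5 calls were stable, the count of falls was 5 to 8 with 1 library left out, and the median was -0.84. The share called was 66.7%, against 13.1% of all genes tested. Slamf6 is a SLAM family receptor widely used to sort progenitors (chr1:171917458-171948958). It stood at 14.9 and 21.3 FPKM in stem-like and at 0.593 and 0.392 FPKM in term diff (-3.66 ± 0.19, adjusted p = 2.4e-05). Ccr7, the receptor for lymph node chemokines, went from 101 and 117 FPKM to 9.03 and 5.76 FPKM (-3.74 ± 0.20, adjusted p = 2.7e-05). Il7r, the receptor for the survival cytokine IL-7, went from 12.9 and 18.8 FPKM to 1.74 and 1.57 FPKM (-2.64 ± 0.19, adjusted p = 0.00015). In all 3 genes the lowest stem-like value was several times the highest term diff value. Itgb7, an integrin chain of gut homing, fell by 1.98 ± 0.20. Cd27, a costimulatory receptor, was near equal, at 37.9 and 44.8 FPKM against 38.6 and 36.4 FPKM (-0.13, 95% interval -0.53 to 0.27).

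The list of inhibitory receptors, which also holds the ectoenzyme genes Entpd1 and Nt5e, did not move as a block. Its share called was 64.7%, against 13.1% of all genes tested. Of 17 tested, 7 rose and 4 fell, of which 5 and 4 were stable, and the median was 0.06. Beside Havcr2, Entpd1 rose from 1.07 and 0.668 FPKM to 20 and 21 FPKM (3.53 ± 0.17, adjusted p = 2.3e-05). It encodes CD39, the ectoenzyme that breaks down extracellular ATP (chr19:40612366-40741602). Nt5e, which encodes CD73, the next enzyme of the same route to adenosine, went the other way. Its level was 21.8 and 23.7 FPKM in stem-like and 2.95 and 3.28 FPKM in term diff (-2.53 ± 0.12, adjusted p = 2.3e-05). Cd200 and genes of the CD200 receptor family were also split. The ligand Cd200 fell by 1.34 ± 0.15, while Cd200r1 rose by 1.83 ± 0.15 and Cd200r4 by 1.79 ± 0.26. Cd244 (2B4), at 0.228 and 0.263 FPKM in stem-like, rose to 2.59 and 2.28 FPKM (1.46 ± 0.14). Cd160 and Btla, which bind the same ligand HVEM, fell by 1.6 ± 0.15 and 1.26 ± 0.16. The receptors used as general marks of exhaustion were high in both subsets and not called. Pdcd1 (PD-1) stood at 148 and 169 FPKM in stem-like and 183 and 191 FPKM in term diff (0.24, 95% interval -0.14 to 0.61). Tigit differed by 0.06 (-0.36 to 0.48), Lag3 by -0.21 (-0.54 to 0.12) and Ctla4 by -0.38 (-0.81 to 0.06).

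Of 17 costimulatory receptors, 2 rose and 4 fell (35.3% called, against 13.1% of all genes tested). Of these calls 2 and 1 were stable, and the list median was -0.04. Crtam, an adhesion receptor of cytotoxic T cells, had the largest change, from 26.6 and 22.5 FPKM to 4.59 and 3.83 FPKM (-2.29 ± 0.13, adjusted p = 3.4e-05). Tnfrsf9, which encodes 4-1BB, rose from 49.8 and 54.4 FPKM to 100 and 102 FPKM (0.94 ± 0.12, adjusted p = 0.0024). Tnfrsf18, which encodes GITR, was not called (-0.04, 95% interval -0.47 to 0.40).

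Most called genes of granule proteins were higher (38.5% of the list called, against 13.1% of all genes tested). Of 26 tested, 8 rose and 2 fell; 6 and 1 were stable, and the median was 0.40. Gzmb, the protease granzyme B that starts apoptosis in target cells (chr14:56258836-56262334), stood at 23.6 and 28.4 FPKM in stem-like and at 285 and 273 FPKM in term diff. It rose by 3.38 ± 0.17 (adjusted p = 2.3e-05). Prf1, the pore-forming perforin, rose from 17.9 and 23.4 FPKM to 77.9 and 81.8 FPKM (1.91 ± 0.17, adjusted p = 0.00038). Neither gene had overlapping groups, which held for every called gene. Gzmf, another granzyme, rose from 0.328 and 0.189 FPKM to 3.98 and 4.51 FPKM (2.06 ± 0.16), and Serpinb9, which protects the cell from its own granzyme B, rose by 0.92 ± 0.14. The lysosomal protease gene Ctsd rose by 1.11 ± 0.16, whereas Lamp1, a membrane protein of lysosomes and granules, fell by 0.80 ± 0.12. Members listed at the same order of level in both subsets were Nkg7, a granule membrane protein (0.41, 95% interval 0.03 to 0.80, adjusted p = 0.15), and Srgn, the proteoglycan that packs granules (-0.46, -0.98 to 0.06).

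Among NK-type receptors and their adaptors, 4 of 14 were called and rose; 2 were stable, 0 fell, and the median was 0.32. Fcer1g, the signalling chain shared by Fc and NK receptors, stood at 1.53 and 1.18 FPKM in stem-like and at 29.8 and 27.1 FPKM in term diff (3.65 ± 0.17, adjusted p = 2.3e-05). It is also 1 of the myeloid markers, of which the other 6 tested had differences below zero and only Cst3 was called. Klra3, a Ly49 receptor, rose by 1.23 ± 0.15. Ly49 genes are near copies of each other, so reads may have been shared among them. The NKG2 receptor genes Klrc1, Klrc2 and Klrc3 were not called (-0.30, -0.41 and -0.13). In this list 28.6% was called, against 13.1% of all genes tested.

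Chemokine genes moved both ways (85.7% called, against 13.1% of all genes tested). Of 7 tested, 4 rose and 2 fell, and 3 and 1 were stable. Ccl5, which attracts T cells and monocytes (chr11:83525778-83530518), stood at 7.08 and 6.12 FPKM in stem-like and at 222 and 130 FPKM in term diff (4.49 ± 0.36, adjusted p = 0.00026). Ccl4 and Ccl3, chemokines of the same CC family, rose by 1.99 ± 0.20 and 1.67 ± 0.21. Ccl4 went from 15.2 and 18.1 FPKM to 64.6 and 73.8 FPKM. Xcl1, which attracts cross-presenting dendritic cells, moved the other way, from 115 and 106 FPKM to 20.1 and 30.6 FPKM (-2.11 ± 0.21, adjusted p = 0.00075). The 2 term diff libraries differed from each other in Ccl5, yet both lay far above stem-like.

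Chemokine receptors moved both ways: 5 of 11 rose and 4 fell, and 2 in each direction were stable. Cxcr6, the receptor of tissue-dwelling T cells, rose from 16.4 and 15.6 FPKM to 77.3 and 67.7 FPKM (2.11 ± 0.18, adjusted p = 0.00034). Ccr6, the receptor for CCL20, fell with Ccr7, from 6.59 and 6.97 FPKM to 0.0978 and 0 FPKM (-2.89 ± 0.13, adjusted p = 2.3e-05). Cxcr3, the receptor for interferon-induced chemokines, was not called (-0.80, 95% interval -1.44 to -0.15, adjusted p = 0.11). Of the chemokine receptor list 81.8% was called, against 13.1% of all genes tested.

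Among cytokines and ligands of the TNF family, 9 of 19 fell and 4 rose, 7 and 2 of them stable, with a median of -0.58. The share called was 68.4%, against 13.1% of all genes tested. Tnfsf4 encodes the ligand of OX40. It stood at 6.34 and 7.69 FPKM in stem-like and at 0.709 and 0.937 FPKM in term diff (-2.13 ± 0.15, adjusted p = 0.00012). Tnfsf11, which encodes RANKL, went from 5.64 and 4.4 FPKM to 0.382 and 0.108 FPKM (-2.27 ± 0.20, adjusted p = 0.00037). Also lower were Tnfsf8, the ligand of CD30 (-1.72 ± 0.13), Tnfsf14, which encodes LIGHT (-1.59 ± 0.20), Lta, which encodes lymphotoxin (-1.30 ± 0.16), Lif (-1.18 ± 0.15) and Tnfsf10, which encodes TRAIL (-0.78 ± 0.12). Csf1, the macrophage growth factor, rose from 11.7 and 12.4 FPKM to 31.3 and 29.9 FPKM (1.28 ± 0.13, adjusted p = 0.00068). The EGF receptor ligand Areg rose by 1.38 ± 0.19. Ifng, the antiviral and antitumour cytokine, stood at 70.8 and 66.5 FPKM in stem-like and 67.5 and 78.5 FPKM in term diff, and its groups overlap (0.08, 95% interval -0.28 to 0.45).

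Cytokine receptor chains moved both ways (47.8% called, against 13.1% of all genes tested). Of 23 tested, 6 rose and 5 fell, 4 and 2 of them stable. Il2rb, the shared chain of the IL-2 and IL-15 receptors, rose from 95.6 and 123 FPKM to 285 and 329 FPKM (1.49 ± 0.19, adjusted p = 0.0022). Il2ra, the high-affinity IL-2 chain, fell from 12.7 and 14.7 FPKM to 6.45 and 3.98 FPKM (-1.27 ± 0.18, adjusted p = 0.0036). Il2rg, the chain shared with the IL-7 receptor, was near equal (-0.02, 95% interval -0.37 to 0.32). Il12rb2 rose by 1.51 ± 0.20, Ifngr1 by 1.37 ± 0.20 and Tgfbr2 by 0.99 ± 0.14. Downstream, 3 of 20 STAT, JAK and SOCS genes fell and 0 rose (15% called, near the 13.1% of all genes tested). Only the fall of the kinase gene Jak2 was stable (-0.89 ± 0.13, from 23.2 and 24.0 FPKM to 12.7 and 11.9 FPKM). Stat3, a mediator of IL-10 and IL-21 signals, was at 81.3 and 95.5 FPKM against 120 and 123 FPKM and was not called (0.46, 0.11 to 0.82, adjusted p = 0.093).

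Of 38 genes of the T cell receptor and its proximal signalling, 4 rose and 4 fell (21.1% called, against 13.1% of all genes tested). Of these calls 1 and 2 were stable, and the list median was 0.00. Tespa1, an adaptor of calcium signals from the receptor, was the exception in size. It went from 14.4 and 13.6 FPKM to 1.26 and 1.10 FPKM (-2.78 ± 0.12, adjusted p = 2.3e-05). Dgka, a lipid kinase that dampens receptor signals, fell from 54.7 FPKM in both stem-like libraries to 26.1 and 24.9 FPKM (-1.07 ± 0.12, adjusted p = 0.0014). Txk, a Tec family kinase, rose by 1.04 ± 0.15. Among genes that receptor signals induce, 5 of 37 rose and 11 fell, 2 and 7 of them stable, with a median of -0.13. Cd83, an activation marker, stood at 12.2 and 10.8 FPKM in stem-like and at 0.399 and 0.678 FPKM in term diff (-3.03 ± 0.15, adjusted p = 2.3e-05). Egr3 fell by 1.64 ± 0.19 and Jun, an AP-1 subunit, by 1.06 ± 0.15. Feedback phosphatases of the MAP kinase route diverged. Dusp6 fell from 26.4 and 28.6 FPKM to 11.5 FPKM in both term diff libraries (-1.18 ± 0.12), and Dusp5 rose from 30.9 and 40.5 FPKM to 119 and 107 FPKM (1.65 ± 0.20, adjusted p = 0.0017). Nr4a1 (NUR77), a reporter gene of receptor signalling, was not called (0.27, 95% interval -0.05 to 0.59).

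Cd69, an early activation antigen that keeps T cells in tissue, stood at 22.5 and 23.4 FPKM in stem-like and at 10.4 and 12.9 FPKM in term diff (-0.93 ± 0.17, adjusted p = 0.011), and the groups did not overlap, as in every called gene. It was lost when stem-like replicate 1 was left out (adjusted p = 0.0521). Without stem-like replicate 2 the adjusted p was 0.0542, and without term diff replicate 1 it was 0.0693.

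Among adhesion genes, 9 of 20 fell and 5 rose, 5 and 2 of them stable, with a median of -0.38. The share called was 70%, against 13.1% of all genes tested. Cd81, a tetraspanin, went from 12.8 and 11 FPKM to 1.52 and 2.00 FPKM (-2.22 ± 0.15, adjusted p = 0.00011). Itga6, a laminin receptor chain, fell by 1.02 ± 0.18. Itgav, a chain of integrins that activate TGF-beta, rose from 16 and 17.7 FPKM to 41.5 and 40.7 FPKM (1.24 ± 0.15, adjusted p = 0.0018). Itga1, the collagen receptor chain of resident T cells, rose by 1.17 ± 0.19 at a low level of 2.36 and 1.29 FPKM in term diff. Of 8 regulators of G protein signalling, which shorten chemokine responses, 3 rose and 1 fell (50% called, against 13.1% of all genes tested). Rgs16 rose from 35.0 and 36.6 FPKM to 118 and 115 FPKM (1.68 ± 0.13, adjusted p = 0.00025), and Rgs10 fell by 2.03 ± 0.27. Of 28 annexins, S100 proteins, galectins and cytoskeletal genes, 8 rose, 4 of them stable, and 0 fell. The stable ones were Flna (filamin A, 1.27 ± 0.14) and the motor gene Myo1f (1.58 ± 0.17). Also stable were the intermediate filament gene Vim (1.18 ± 0.15) and Anxa11 (0.75 ± 0.12). In this list 28.6% was called, against 13.1% of all genes tested.

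**Figure D3:**
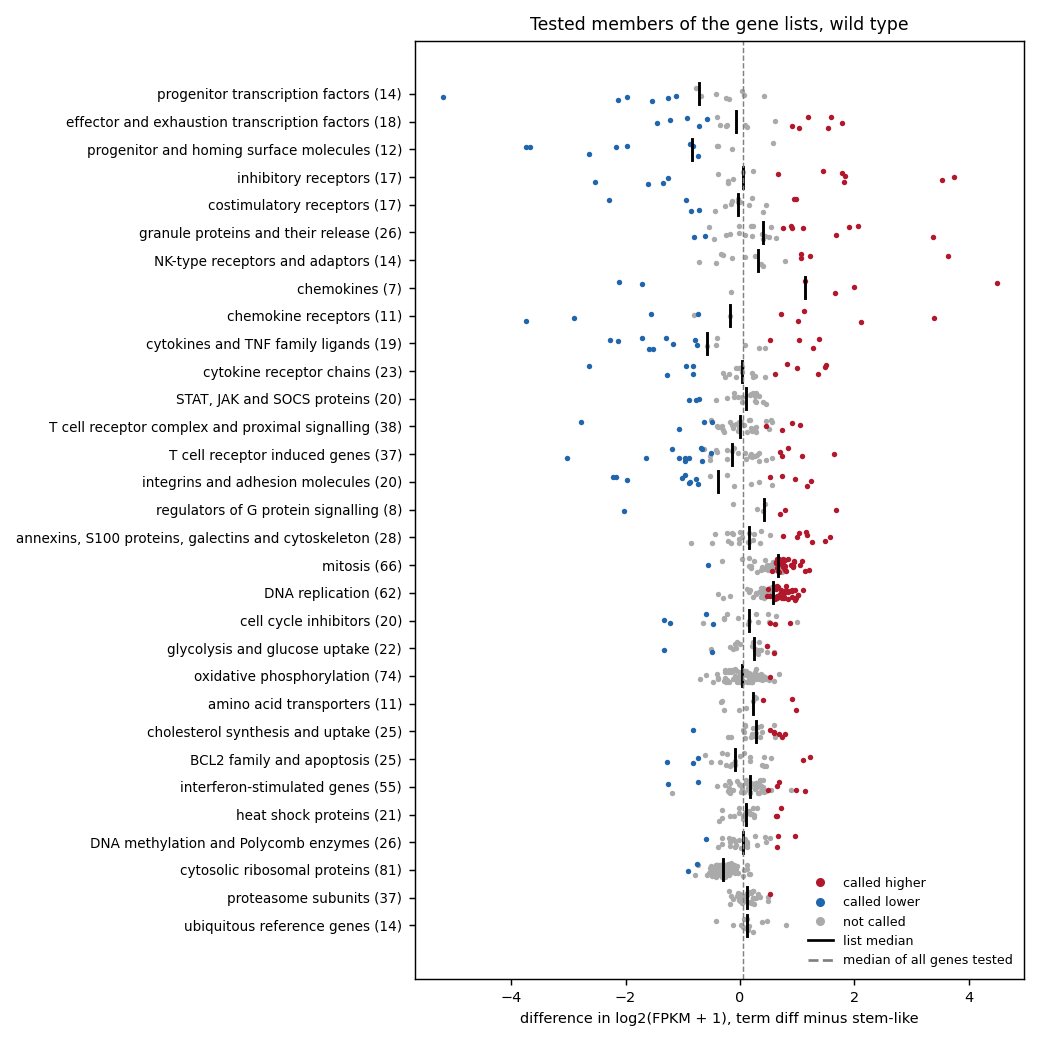
Difference in log2(FPKM + 1), term diff minus stem-like (horizontal), for every tested member of 31 gene lists (vertical, number tested in brackets); colours mark calls, black bars list medians and the dashed line the median of all genes, 0.06. Progenitor lists lie to the left, mitosis and DNA replication lie to the right with a narrow spread, and receptor and cytokine lists reach far in both directions.

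About as many genes of mitosis and DNA replication rose by moderate amounts as were not called, and these counts depended on single libraries. Of 66 mitosis genes, 36 rose, 1 fell and 29 were not called, with a median of 0.67. This was 56.1% called, against 13.1% of all genes tested and 7.24% called higher. The 1 that fell was Smc4, a condensin subunit, and its call was not stable. Of 62 replication genes, 31 rose, 0 fell and 31 were not called (50% called), with a median of 0.58. With 1 library left out, 7 to 20 mitosis genes and 7 to 15 replication genes were still called higher. The low ends came without stem-like replicate 1 (7 mitosis genes) and without term diff replicate 2 (7 replication genes). Stable calls were 6 and 5. Without both replicate 2 libraries, 4 mitosis and 4 replication genes were called higher. Rescaling every library to an equal FPKM sum over all rows left 0 of either list called. With median-of-ratios scaling, 31 mitosis and 26 replication genes were called higher, and 1 of each list lower. List medians stayed between 0.61 and 0.84 (mitosis) and between 0.53 and 0.78 (replication) under the 4 scalings tried. Mki67, the proliferation marker Ki-67 (chr7:135689784-135716450), stood at 35.9 and 39.5 FPKM in stem-like and at 73.9 and 89.9 FPKM in term diff (1.09 ± 0.17, adjusted p = 0.0053). Ckap2l and Prc1, which organise the spindle, rose by 1.05 ± 0.14 and 1.13 ± 0.16, and the kinesin gene Kif22 by 1.21 ± 0.18. Ncapd2, a condensin subunit, rose from 7.11 and 8.11 FPKM to 14.2 and 16.6 FPKM (0.93 ± 0.15, adjusted p = 0.0055). In the replication list, Clspn, a checkpoint adaptor at the fork, rose from 4.38 and 4.73 FPKM to 9.81 and 12.2 FPKM (1.11 ± 0.14, adjusted p = 0.0020). The helicase subunits Mcm4 and Mcm5 rose by 0.84 ± 0.12 and 0.98 ± 0.16, the chromatin assembly factor Chaf1a by 1.02 ± 0.14 and the maintenance methyltransferase Dnmt1 by 0.97 ± 0.14. Levels were above 1 FPKM in stem-like for each of these genes, so they were seen in both subsets. Pcna, the sliding clamp, was not called (0.37, 95% interval -0.04 to 0.77), nor was Top2a, which untangles DNA (0.72, 0.24 to 1.20, adjusted p = 0.060). Outside the lists, Cdk6, the kinase that drives entry into the cycle, rose from 7.20 and 8.53 FPKM to 28.1 and 42.8 FPKM (2.02 ± 0.20, adjusted p = 0.00066).

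**Figure D4:**
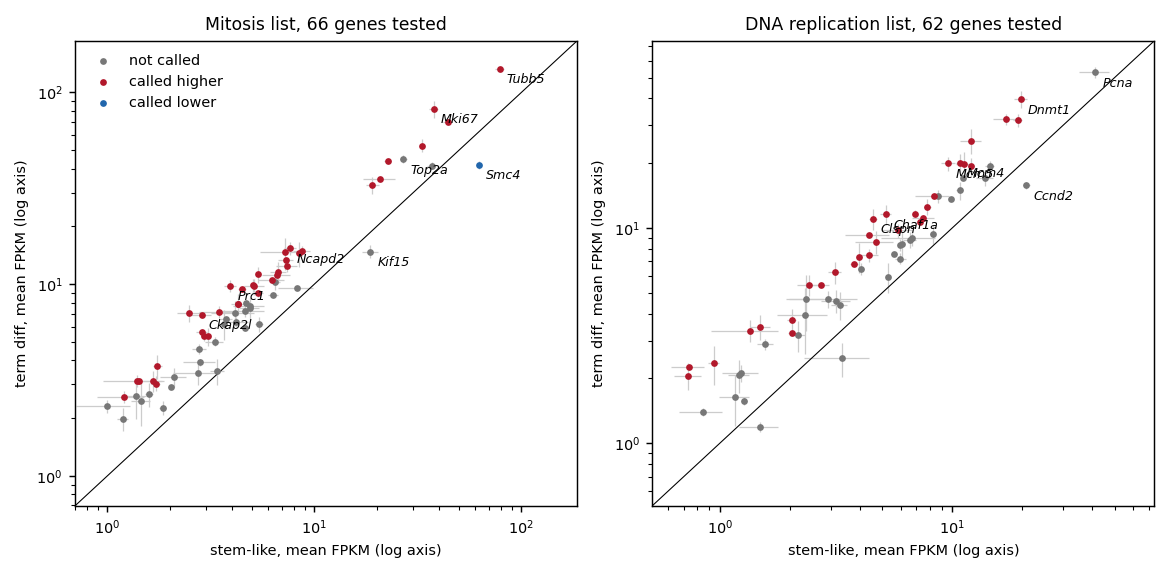
Mean FPKM in term diff (vertical, log axis) against stem-like (horizontal, log axis) for the 66 mitosis and 62 replication genes tested; bars span the 2 libraries of each subset, and the line marks equal levels. Most genes lie above the line by a similar distance, including genes that were not called; Smc4, Kif15 and Ccnd2 lie below it.

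The promoters of both lists were searched for letters that belong to cell cycle control. The cell cycle homology region, TTTGAA, is bound by the DREAM and MuvB complexes in genes of mitosis. It was searched on both strands from 250 bases before to 50 after the start, in the 5524 tested genes with a single RefSeq promoter. It occurred in 36 of 50 mitosis promoters (72%) and in 6 of 40 replication promoters (15%), against 11.7% of all 5524. Among genes called higher it occurred in 19.2%, and among genes called lower in 9.24%. Mitosis genes were not taken out of the genes called higher, so these shares are not independent. The E2F spellings TTTCGCGC and TTTGGCGC, which do not overlap it, occurred in 5 and 6 of 40 replication promoters, and in 0.76% and 1.39% of all. CCAAT, the box of NF-Y, was in 34 of 50 mitosis and 25 of 40 replication promoters, and in 40.4% of all. A match is a description and not a binding site. To show the element, 4 promoter stretches follow, those of the called mitosis genes with the smallest p whose window lay wholly before the start. Capitals mark a single TTTGAA match in each stretch, 5′ to 3′ on the strand that carries it (RefSeq, GRCm38.p6). The Mki67 stretch holds another TTTGAA near its 5′ end, left in lower case.
Ckap2l: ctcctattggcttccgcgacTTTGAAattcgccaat
Mki67: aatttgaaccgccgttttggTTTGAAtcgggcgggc
Ncapd2: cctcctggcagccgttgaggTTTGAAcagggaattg
Ncapg2: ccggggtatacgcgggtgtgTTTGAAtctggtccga
They lie at chr2:129297217-129297252 (plus strand), chr7:135716462-135716497 (minus strand), chr6:125191694-125191729 (minus strand) and chr12:116405398-116405433 (plus strand). The call of Ncapg2, a condensin II subunit at 4.21 and 4.29 FPKM in stem-like and 7.63 and 8.07 FPKM in term diff (0.75 ± 0.14, adjusted p = 0.012), was not stable.

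Metabolic lists ranged widely in their share of calls, against 13.1% of all genes tested. Of 74 genes of oxidative phosphorylation, 1 rose and 0 fell (1.35% called), and the median of 0.03 changed sign between scalings (-0.05 to 0.18). Of 22 genes of glycolysis and glucose uptake, 2 rose and 2 fell (18.2% called), and 0 were stable. Gapdh and Ldha, enzymes of glycolysis, were not called (0.38, 95% interval 0.07 to 0.69, and 0.26, -0.06 to 0.58). Of 11 amino acid transporters, 3 rose and 0 fell (27.3% called). Slc7a5, the light chain of the large neutral amino acid transporter, was the stable one, from 5.10 and 5.80 FPKM to 12.2 and 11.2 FPKM (0.98 ± 0.13, adjusted p = 0.0023). Of 25 genes of cholesterol synthesis and uptake, 6 rose and 1 fell (28% called), and 0 calls were stable.

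In the remaining lists 0% to 35% of genes were called, against 13.1% of all genes tested. Of 25 BCL2 family and apoptosis genes, 2 rose and 3 fell (20% called), and 2 in each direction were stable. Bcl2l11, which encodes the killer protein BIM, rose from 8.78 and 10.7 FPKM to 25 and 22.8 FPKM (1.22 ± 0.16, adjusted p = 0.0026). Fas, the death receptor, fell from 3.16 and 3.43 FPKM to 0.604 and 0.942 FPKM (-1.28 ± 0.16, adjusted p = 0.0018). Mcl1, a survival protein, was not called (-0.23, 95% interval -0.50 to 0.05). Among 55 interferon-stimulated genes 5 rose and 2 fell (12.7% called), among 21 heat shock proteins 3 rose and 0 fell (14.3%), among 37 proteasome subunits 1 rose and 0 fell (2.7%), and 0 of these calls were stable. Of 20 cell cycle inhibitors 3 rose and 4 fell (35% called), with 1 stable call each way: the pocket protein gene Rbl2 rose by 0.87 ± 0.14 and the p53 target Trp53inp1 fell by 1.33 ± 0.18. Of 26 DNA methylation and Polycomb genes 3 rose and 1 fell (15.4% called), and Dnmt1 alone was stable. Of 81 cytosolic ribosomal proteins, 2 fell and 0 rose (2.47% called), with a median of -0.30 that ran from -0.37 to -0.14 under the 4 scalings. The 14 ubiquitous reference genes had 0 calls and a median of 0.13. Their largest difference was that of Actb, beta-actin, at 720 and 861 FPKM in stem-like and 1438 and 1330 FPKM in term diff (0.81, 0.06 to 1.56, adjusted p = 0.15).

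Outside the lists, large differences lay in genes of varied function. Lrig1, a brake on growth factor receptors, stood at 14.1 and 15.8 FPKM in stem-like and at 0.697 and 0.276 FPKM in term diff (-3.44 ± 0.19, adjusted p = 3.0e-05). Aff3, a nuclear factor of lymphoid cells, went from 8.40 and 11.3 FPKM to 0.191 and 0.132 FPKM (-3.21 ± 0.18, adjusted p = 3.8e-05). Also lower were Tiam1, an exchange factor for the GTPase Rac (-2.30 ± 0.13), Synpo, an actin-binding protein (-2.26 ± 0.17), and Atp2b2, a calcium pump of the plasma membrane (-2.20 ± 0.13). Their stem-like levels ran from 10.1 to 21.7 FPKM. On the other side, Adam8, a membrane protease of leukocytes, rose from 0.572 and 0.236 FPKM to 13.1 and 13.2 FPKM (3.35 ± 0.17, adjusted p = 2.3e-05). Sytl2, an effector of RAB27 in granule transport, rose from 3.44 and 3.25 FPKM to 22.7 and 26.8 FPKM (2.56 ± 0.16, adjusted p = 8.0e-05). Ppp1r3b, a glycogen-targeting phosphatase subunit, rose by 2.73 ± 0.14 and Fgl2, a fibrinogen-like secreted protein, by 2.46 ± 0.23. Plac8 rose from 6.35 and 5.15 FPKM to 73.1 and 27.2 FPKM (2.77 ± 0.37, adjusted p = 0.0026), so its term diff libraries differed widely but lay above both stem-like libraries. Arsb, a lysosomal sulfatase, and Cebpb, a transcription factor best known in myeloid cells, rose by 1.87 ± 0.15 and 1.93 ± 0.19.

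**Figure D5:**
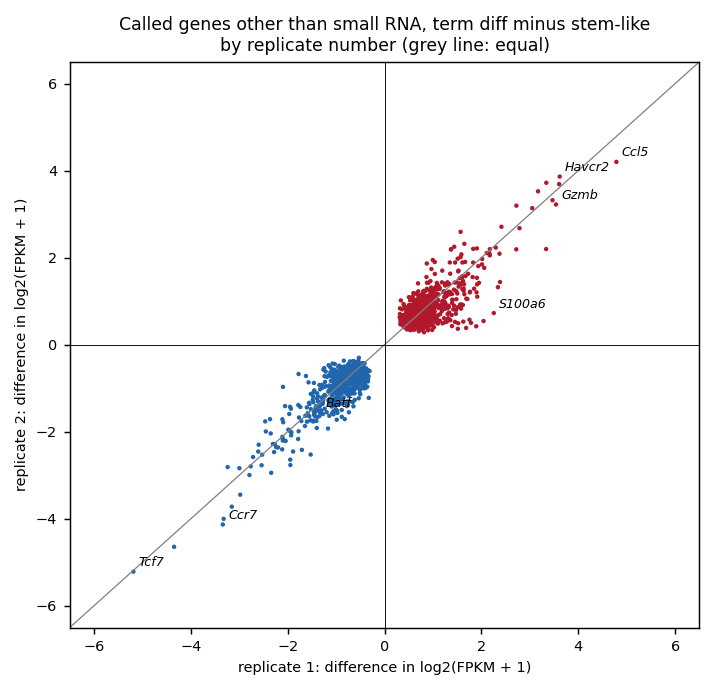
Difference in log2(FPKM + 1), term diff minus stem-like, from the libraries numbered 1 (horizontal) and from those numbered 2 (vertical), for the 1270 called genes other than small RNA; red marks higher and blue lower. Large differences such as Tcf7, Ccr7, Gzmb and Ccl5 lie near the line of equal values, whereas the difference in S100a6, whose call was not stable, was larger between the libraries numbered 1.

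The same subsets of Cd69-/- mice, in separate libraries, gave 924 called genes (9.45% of those tested; 3.88% higher and 5.56% lower). Of the genes called in wild type, 640 were called there too, 50.1% of the wild-type calls and 69.3% of the Cd69-/- calls, all 640 in the same direction. Whether the subset difference itself differed between genotypes was tested by the interaction, which called 3 genes (0.0307% of those tested), with 889 at an unadjusted p under 0.05. Tcf7 fell by 5.28 ± 0.19 in Cd69-/- and Havcr2 rose by 3.51 ± 0.15, beside -5.20 and 3.74 in wild type (interaction adjusted p = 0.92 and 0.70). Ccl5 differed by 2.92 ± 0.36 in Cd69-/- and 4.49 in wild type, and this gap did not pass the interaction test (-1.57 ± 0.51, adjusted p = 0.54). Of the mitosis genes, 3 of 66 were called higher in Cd69-/- (median 0.27) and 36 of 66 in wild type (median 0.67). None, 0 of the 66, passed the interaction test (lowest adjusted p = 0.54), with 20 of 66 at an unadjusted p under 0.05. Over all genes tested, 889 of 9782 had an unadjusted interaction p under 0.05. Of the 62 replication genes (median 0.22 in Cd69-/- and 0.58 in wild type), 0 passed the interaction test and 19 had an unadjusted p under 0.05. Mki67 differed by 0.33 ± 0.17 in Cd69-/- (adjusted p = 0.29) and by 1.09 in wild type (interaction adjusted p = 0.54). A genotype difference was thus not shown for any single gene of these 2 lists. Both lists held a larger share of genes at an unadjusted interaction p under 0.05 than all genes tested. Whether either list as a whole differed between the genotypes was not tested.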

How the data were processed

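RNA-seq of total RNA (a stranded low-input SMARTer kit, single-end reads on a NextSeq500, per the labels) gave 1 gene table per library. The deposited values are FPKM computed by the authors, in the layout of Cufflinks gene tables. The tools listed in the submitters' processing notes, without their roles, are TopHat 1.3.2, Bowtie2 2.3.4, Cufflinks 2.2.1 and bcl2fastq 2.20, with the mouse build mm10. The annotation, strand setting and scaling total are not given in the sources used here. Each table held 23746 rows, joined by symbol and locus; 708 rows shared a symbol with another and were kept apart, and 3 rows whose status was not OK were left out. Read counts were not used here: fragments were implied from each FPKM and its upper confidence limit, and are approximate.

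Values were used as deposited, as log2(FPKM + 1). The filter kept a gene that reached 1 FPKM in 2 of the 8 libraries. limma 3.58.1 in R 4.3.3 fitted 4 group means to all 8 libraries (trended empirical Bayes; 4 residual degrees of freedom, prior 4.2). Every adjusted p is from this fit, 2-sided, with Benjamini-Hochberg adjustment over all 9782 genes and a threshold of 0.05; intervals are 95%. The script was tested on simulated data. The same numbers in the 2 groups are not said to mark shared mice.

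The members and the gene lists were chosen with earlier results of these data known. Named genes were the 25 largest rises and falls with 5 FPKM or more in a group and no overlap, genes under 1 FPKM in one subset and at 10 or more in the other, up to 6 called members with the smallest p and 3 abundant uncalled members per list, interaction genes, Cd69 and reference genes; some were left unnamed for length, and some genes are not reported here. Areg, Batf, Btla, Cd200, Cd200r4, Itga6, Lag3, Ncapg2, Nr4a1, Serpinb9, Smc4, Tnfsf10, Tnfsf14, the marker genes below the filter and those in the closing observations were picked after their values had been seen. As alternatives, single choices were changed: pseudocount, filter, scaling, fit, replicate block and libraries left out.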

Additional observations from a re-analysis of the deposited data

Results flagged for a closer look

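The subset difference differed between the genotypes in 3 genes, each tested by the interaction (difference in Cd69-/- minus that in wild type, limma, adjusted p). Defb13, a beta-defensin gene, gave 2.01 ± 0.21 (adjusted p = 0.036): it was at 2.81 and 3.24 FPKM in wild-type stem-like and listed at 0 in the other 6 libraries. The microRNA gene Mir133a-2 gave 5.89 ± 0.19 (adjusted p = 7.6e-06): it was at 54.5 and 62.8 FPKM in wild-type stem-like and listed at 0 in the other 6. The small RNA gene Rnu73b gave -10.34 ± 0.81 (adjusted p = 0.0055): it was listed at 0 in both wild-type stem-like libraries, at 1556 and 385 FPKM in wild-type term diff, and at 448 to 1225 FPKM in Cd69-/-. Implied fragments were 1 and 1 for Defb13 and for Mir133a-2 in wild-type stem-like, and 4 and 1 for Rnu73b in wild-type term diff.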

How the results depend on the processing

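Against 1278 genes called (708 higher, 570 lower), 752 (389, 363) were called with no filter on low values, 756 (405, 351) with only the 4 wild-type libraries in the fit, and 153 (74, 79) with an equal FPKM sum over all rows. A filter of at least 5 FPKM left 864, of which 322 were lower. Leaving out 1 wild-type library left 608 to 766 called, 276 to 454 of them higher and 312 to 332 lower. Without both wild-type replicate 2 libraries, 325 were called (173, 152). The interaction, which called 3 genes, called 8 with a pseudocount of 5, 51 with the equal FPKM sum, 5 to 11 with 1 wild-type library left out and 18 without both replicate 2 libraries. The cause was not tested; fewer libraries or fewer residual degrees of freedom entered the fits without libraries. A lone library in such a fit is assumed to vary like the other groups. The replicate block gave 1070 called genes, 1038 of them among the 1278, and changed no call of a named gene; deviations of same-numbered wild-type libraries correlated at 0.15, and nothing states that numbers mark shared mice. Of 37 lists, 9 had a median whose sign differed between the 4 scalings: effector transcription factors, inhibitory and costimulatory receptors, cytokine receptors, T cell receptor signalling, oxidative phosphorylation, apoptosis, DNA methylation enzymes and CD8 markers. Among named genes, 88 of 124 calls held without both replicate 2 libraries; Mki67, Prc1, Kif22, Ncapd2, Mcm4, Mcm5, Chaf1a, Rbpj, Lef1, Rora, Btla, Lta, Ccl3 and Jak2 were among those that did not. No called value reversed. Depth limits small RNA and other low genes most.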

Other observations

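The smallest adjusted p of the comparison belonged to Mir133a-2 (4.5e-07), which rested on 1 implied fragment in each stem-like library and 0 in each term diff library. In all, 11 of the 1278 called genes had at most 5 implied fragments in every wild-type library. Among them Snora20 was listed at 1334 and 1538 FPKM in stem-like and at 0 in term diff, and Snord88c at 152 and 175 FPKM in stem-like and at 0 in term diff; each of these stem-like values equals 1 implied fragment. Cox7a1 (0 and 0 against 2.05 and 2.70 FPKM) and the beta-defensin gene Defb7 (0 and 0 against 1.05 and 2.09 FPKM) rested on 1 to 4 fragments per term diff library. The calls of Snora20, Snord88c and Cox7a1 were lost with each of the 4 wild-type libraries left out in turn (lowest adjusted p = 0.111, 0.108 and 0.063).

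Some linker histone genes, which are in no list, were called. Hist1h1b stood at 41.3 and 36.8 FPKM in stem-like and at 151 and 91.2 FPKM in term diff (1.57 ± 0.28, adjusted p = 0.0090), and Hist1h1d at 21.8 and 20.8 FPKM against 76.3 and 49.7 FPKM (1.49 ± 0.23, adjusted p = 0.0047). In both, term diff replicate 1 lay highest. Hist1h1e rose too (0.98 ± 0.22, adjusted p = 0.022), but its call was lost without stem-like replicate 1 (adjusted p = 0.0661), stem-like replicate 2 (0.0992) or term diff replicate 1 (0.0882). Hist1h1a (0.67), Hist1h1c (0.48), H1f0 (-0.20) and H1fx (-0.03) were tested and not called. These genes were named after their values were seen.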
